A study of Mus musculus with 12 samples.

Results

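The activin set was followed here as 8 genes: the activin subunits Inhba and Inhbb, the antagonists Fst and Fstl3, the type I receptors Acvr1 and Acvr1b, and the type II receptors Acvr2a and Acvr2b. The genes were chosen from earlier results of these same data, in which lower Inhba in the basal forebrain of the mutants had been seen. They are 8 of 37306 gene names on the array and were read by 14 of its 56568 probes. Inhba, Inhbb, Fst and Fstl3 have 1 probe each, and the 4 receptors have several.

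Activins are secreted dimers of beta subunits, encoded by Inhba and Inhbb, and they belong to the TGF-beta superfamily. They bind a type II receptor, which recruits and phosphorylates a type I receptor, and the complex then phosphorylates SMAD2 and SMAD3. Follistatin and follistatin-like 3 bind activin outside the cell and keep it from its receptors. In forebrain neurons Inhba is known as an activity-regulated gene, and activin is studied there for its part in synaptic plasticity and neuronal survival.

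RNA was measured on 12 one-colour arrays from 2 regions, basal forebrain and cortex, of 6 mice aged 2 months and labelled male. The 3 mutants (DKO) carried ChatCre, a floxed target gene on both alleles and no intact PS2 allele (PS2 -/-). The 3 controls (Con) had no Cre, the same floxed alleles and 1 intact PS2 allele (PS2 +/-). All 6 mice therefore had the floxed alleles, and all 6 lacked at least 1 PS2 allele. PS2, the gene Psen2, provides one of the catalytic subunits that gamma-secretase can use. Cre driven by Chat confines the deletion of the floxed gene to cholinergic cells and their descendants, whereas PS2 was absent from every cell of the DKO mice. The comparison asks how this genotype bears on RNA in a region that holds cholinergic cell bodies and in one that they innervate.

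Levels are log2 intensity relative to the 75th percentile of each array, which is set to 0. A level compares the same probe between arrays and never one gene with another. The scanner called 68.9% to 74.97% of probes well above background, depending on the array, and arrays of a group correlated at 0.985 to 0.995. Psen2 lay between -1.86 and -1.25 on the 6 DKO arrays and between 0.25 and 0.50 on the 6 Con arrays. All 10 genes of the cholinergic marker list were higher in basal forebrain than in cortex in Con, and 9 of 10 excitatory cortical neuron markers were lower. DKO mice 1 and 3 gave Xist signal and no Y-linked signal in both regions, against their label. DKO mouse 2 and the 3 Con mice gave Y-linked signal and no Xist signal. By these genes sex was not balanced between genotypes, so with all mice a genotype difference cannot be told apart from a sex difference. Slides also differed: slide 1 held all 6 forebrain arrays plus cortex from DKO mice 1 and 2, and slide 2 held cortex from DKO mouse 3 and from the 3 Con mice. In bulk tissue, fewer cells of a type and less RNA per cell cannot be told apart.

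The probes of Inhba and Fst are printed because Inhba had the largest genotype difference of the 8 genes in forebrain and Fst, whose product binds activin A, was lower in forebrain in all 6 mice. Positions are those in the files, in mm9. The Inhba probe lies on chromosome 13, chr13:16118634-16118693, plus strand. The Fst probe maps to chr13:115244692-115245364, minus strand, a span of 673 bases for 60 letters, so its alignment is split by a gap. The sequences are given 5′ to 3′ in lower case with no letters marked.

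Inhba: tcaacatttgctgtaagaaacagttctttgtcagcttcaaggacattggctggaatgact

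Fst: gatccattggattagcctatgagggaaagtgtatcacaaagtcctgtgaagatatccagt

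Inhba encodes the beta A subunit, the building block of activin A. In basal forebrain its level was 0.58, 0.43 and 0.33 in the 3 DKO mice and 1.24, 1.12 and 1.37 in the 3 Con mice. Every DKO value lay below every Con value, with a gap wider than the range within either genotype. The difference was -0.80 (SE 0.10, n = 3 and 3), or 1.74-fold lower in DKO. It is given as a description, since Inhba was noticed in this contrast. In cortex, which that choice did not use, Inhba stood at 0.74, 0.54 and 0.56 in DKO and at 1.02, 0.91 and 0.84 in Con. These groups did not overlap either, and the difference was -0.31 (SE 0.09, 95% interval -0.52 to -0.10) with a limma adjusted p of 0.261 over all genes, so it did not pass.

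Inhba was highest in Con basal forebrain (1.25 ± 0.13, SD, n = 3), followed by Con cortex (0.92 ± 0.09), DKO cortex (0.61 ± 0.11) and DKO basal forebrain (0.45 ± 0.12). Neighbours in this order did not overlap except the last pair, where the DKO cortex values of 0.54 and 0.56 lay below the DKO forebrain value of 0.58. The order of the regional means thus differed between genotypes, although the regions overlapped in DKO and coincided with slide in Con. Within single mice, basal forebrain minus cortex was 0.22, 0.21 and 0.54 in Con and -0.16, -0.11 and -0.23 in DKO. The genotype difference in forebrain minus that in cortex was -0.49 (SE 0.14), a value that contains the contrast in which Inhba was noticed and is not tested. Over all genes, 0 of 26959 passed limma for this difference (8.36% had an unadjusted p under 0.05), although 1559 passed without DKO mouse 3.

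**Figure D1:**
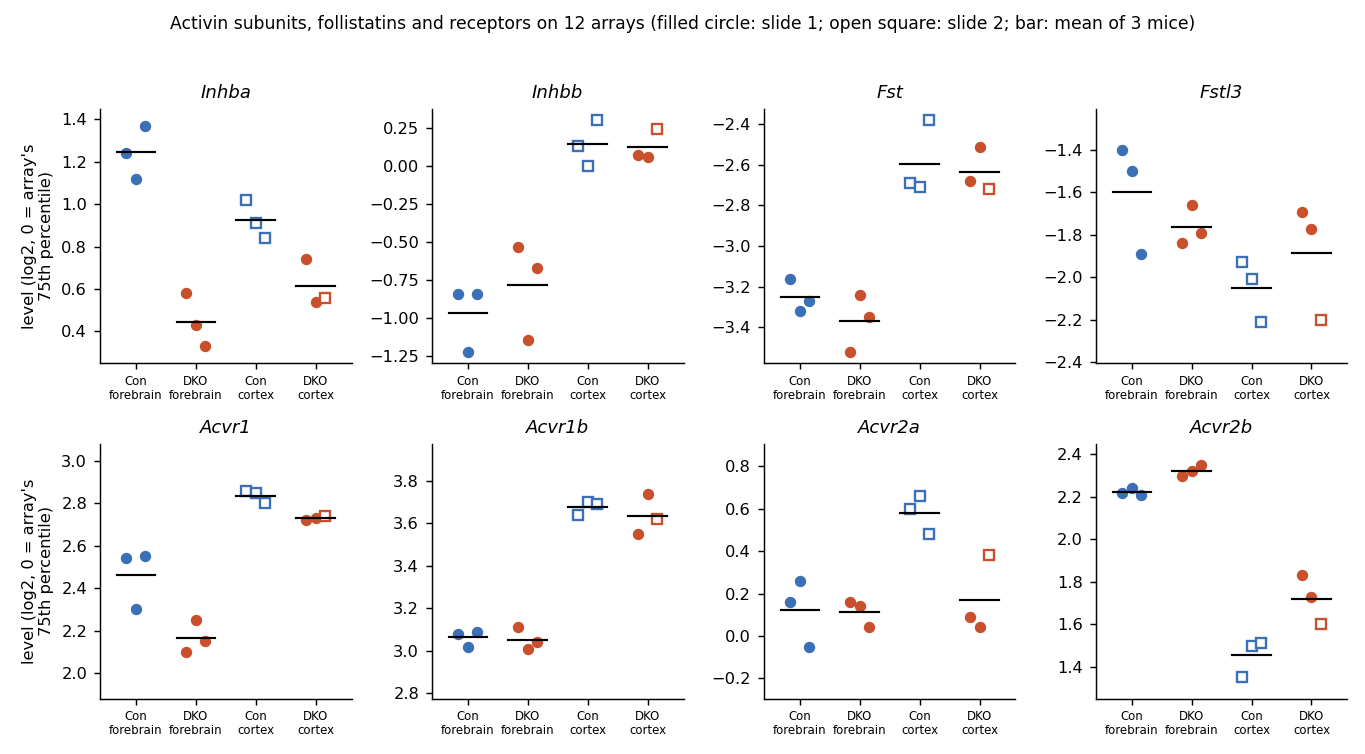
Level of each of the 8 genes (brightest probe, log2, 0 at the array's 75th percentile) on the 12 arrays, by genotype and region, with the mean of 3 mice as a bar; filled circles are slide 1 and open squares slide 2. Inhba is lower in DKO than in Con in both regions, while Inhbb, Fst and Acvr1b separate by region.

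Inhbb encodes the beta B subunit, the partner of activin B and of activin AB. In basal forebrain it stood at -0.53, -1.14 and -0.67 in DKO and at -0.84, -1.22 and -0.84 in Con, so the genotypes overlapped. In cortex the DKO values of 0.07, 0.06 and 0.24 fell within the range of the Con values of 0.13, 0.00 and 0.30. The cortical difference of -0.02 (SE 0.10, 95% interval -0.26 to 0.22, limma adjusted p = 0.931) was within the spread between replicates. The forebrain difference was 0.18 (SE 0.19), opposite in sign to that of Inhba, and became -0.18 when DKO mouse 2 alone stood for the mutants.

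Fst encodes follistatin, the high-affinity activin antagonist, and Fstl3 its shorter relative. Fst stood at -3.52, -3.24 and -3.35 in DKO forebrain and at -3.16, -3.32 and -3.27 in Con forebrain. Cortical Fst was -2.68, -2.51 and -2.72 in the mutants and -2.69, -2.71 and -2.38 in the controls. The genotypes overlapped in both regions, with differences of -0.12 (SE 0.15) in forebrain and -0.04 (SE 0.14, limma adjusted p = 0.873) in cortex. Fstl3 overlapped as well, at -1.84, -1.66 and -1.79 against -1.40, -1.50 and -1.89 in forebrain and at -1.69, -1.77 and -2.20 against -1.93, -2.01 and -2.21 in cortex. Its cortical difference was 0.16 (SE 0.16, limma adjusted p = 0.554), with DKO listed first in each case. It was -0.15 on slide 2 alone, 0.07 without DKO mouse 1, 0.08 without Con mouse 3 and 0.32 (0.062) without DKO mouse 3.

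Acvr1 encodes ALK2, a type I receptor that also serves bone morphogenetic proteins. Its brightest probe read 2.10, 2.25 and 2.15 in DKO forebrain against 2.54, 2.30 and 2.55 in Con, and 2.72, 2.73 and 2.74 in DKO cortex against 2.86, 2.85 and 2.80 in Con. DKO lay below Con without overlap in both regions, by -0.30 (SE 0.09) in forebrain and by -0.11 (SE 0.05, limma adjusted p = 0.298) in cortex. The cortical difference was -0.03 (0.743) under array-median scaling and -0.21 (0.27) as the mean of its probes without the dimmest. A second Acvr1 probe gave -0.32 and -0.31, again without overlap, and followed the first over the 12 arrays with r = 0.96, although both probes read the same libraries. Acvr1b encodes ALK4, the main type I receptor of activin A. Its forebrain values were 3.11, 3.01 and 3.04 in DKO beside 3.08, 3.02 and 3.09 for Con, a difference of -0.01 (SE 0.06). Its cortical values were 3.55, 3.74 and 3.62 beside 3.64, 3.70 and 3.69, a difference of -0.04 (SE 0.06, 95% interval -0.19 to 0.11, limma adjusted p = 0.752).

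Acvr2a and Acvr2b encode the type II receptors that bind activin first. Acvr2a read 0.16, 0.14 and 0.04 in DKO forebrain and 0.16, 0.26 and -0.05 in Con forebrain, which overlap. Its cortical values were 0.09, 0.04 and 0.38 for DKO beside 0.60, 0.66 and 0.48 for Con, without overlap and with a difference of -0.41 (SE 0.11, limma adjusted p = 0.261). Acvr2b had the opposite sign: 2.30, 2.32 and 2.35 in DKO forebrain against 2.22, 2.24 and 2.21, and 1.83, 1.73 and 1.60 in DKO cortex against 1.35, 1.50 and 1.51. Those groups did not overlap in either region, with differences of 0.10 (SE 0.06) in forebrain and 0.26 (SE 0.09, limma adjusted p = 0.261) in cortex. Under array-median scaling the forebrain difference was 0.01, and as the mean of all probes the cortical one was 0.02 (limma adjusted p = 0.894).

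In all, 0 of 8 genes passed the limma test at an adjusted p under 0.05 in cortex, where 0.0116% of the 25798 genes tested passed. Before adjustment 3 of 8 (Inhba, Acvr2a and Acvr2b) had a limma p under 0.05, against 18.9% of all genes. Cortical values did not overlap between genotypes for 4 of 8 (Inhba, Acvr1 and Acvr2a lower in DKO, Acvr2b higher), against 22.4% of all genes, 13.5% lower and 8.86% higher. In basal forebrain 0.0306% of 26102 genes passed, and the 8 genes are described there without a test. Groups did not overlap there for 3 of 8 (Inhba, Acvr1 and Acvr2b), against 9.95% of all genes, and nothing is read from that count because of how the genes were chosen. The median difference of the 8 was -0.04 in cortex, beside -0.05 over all genes, and -0.07 in forebrain, beside 0.00.

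**Figure D2:**
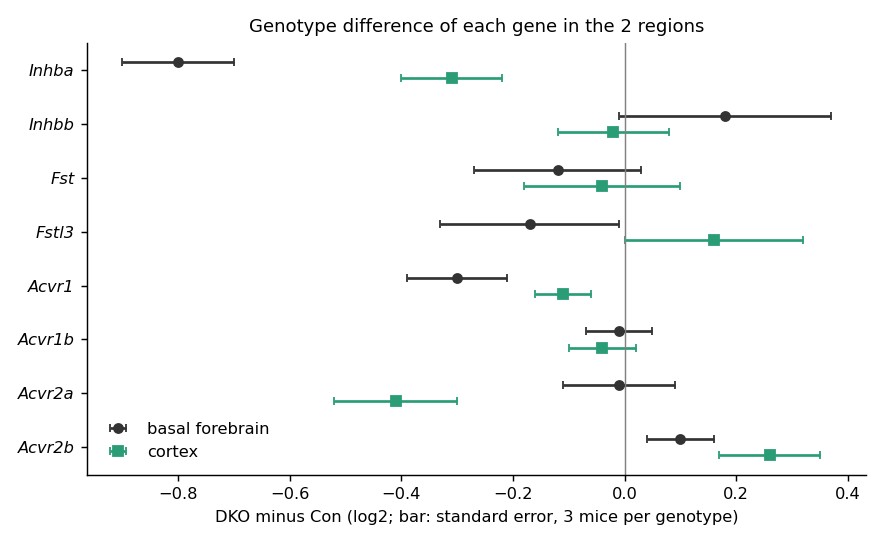
DKO minus Con difference of each gene (log2) with its standard error, in basal forebrain (circles) and cortex (squares), 3 mice per genotype. Inhba is at -0.80 in forebrain and -0.31 in cortex, Acvr2a is at -0.01 and -0.41, and Inhbb, Fst and Acvr1b lie near 0 in cortex.

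The cortical values depended on the array of DKO mouse 3, the one DKO cortex array that shared slide 2 with the controls. Without it, slide and genotype cannot be told apart in cortex, and 9759 of 26082 genes passed (37.4%), among them Inhba (-0.28, limma adjusted p = 0.0402), Acvr2a (-0.52, 0.00317) and Acvr2b (0.33, 0.0118). On slide 2 alone, with that 1 mouse against the 3 controls and its spread taken from the controls, Inhba was at -0.36 (SE 0.10, limma adjusted p = 0.441), Acvr2a at -0.20 (0.727) and Acvr2b at 0.14 (0.8). Acvr2a stood at 0.06 on average on the 2 DKO arrays of slide 1, at 0.38 on the DKO array of slide 2 and at 0.58 on average in Con. The second Acvr2a probe stood at -2.04, -1.96 and -1.71 in the same order. Its cortical genotype difference was -0.30, without overlap. Acvr2b stood at 1.78, 1.60 and 1.46 in the same order. With DKO mouse 2 as the only mutant, Inhba was at -0.38, Acvr2a at -0.54 and Acvr2b at 0.28. These values again lie across slides and rest on that lone mouse.

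Mean levels of blood-cell marker lists did not overlap between genotypes in either region. Of the B cell markers, 5 of 7 were higher in DKO by limma in forebrain and 1 of 6 in cortex. Of 6 erythroid and 8 neutrophil markers 0 passed, although 6 and 7 of them had an unadjusted p under 0.05 in each region. The neutrophil gene Elane stood at -0.09 in forebrain and -0.14 in cortex, and the B cell gene Cd79a at -0.07 in cortex. The mean level of 6 erythroid markers was 1.98 to 3.49 in DKO forebrain and 0.35 to 0.57 in Con forebrain, and 1.89 to 3.00 against 0.37 to 0.80 in cortex. For 8 neutrophil markers it was -1.80 to -0.84 against -3.83 to -3.27 in forebrain and -1.38 to -0.45 against -3.79 to -2.96 in cortex. For 7 B cell markers it was -4.10 to -3.48 against -7.03 to -7.00, and -4.67 to -3.65 against -6.91 to -6.57. The absence of overlap was not confined to blood cells: the mean level of 8 endothelial markers was also higher in DKO without overlap in both regions. Of these markers 7 were above 0 in forebrain (median difference 0.24) and 5 in cortex (0.06). None passed limma, and 2 in forebrain and 3 in cortex had an unadjusted p under 0.05. The part of blood and endothelial cells in the values of Inhba, Acvr1 and Acvr2b was not tested. Excitatory neuron markers overlapped between genotypes in forebrain, at -0.59, -1.02 and -1.36 in DKO and -0.49, -1.31 and -0.23 in Con. In cortex that list stood at 1.85 to 2.03 in DKO and at 1.88 to 1.99 in Con. Other lists had values on one side of 0 in cortex with 0 genes passing limma: cholinergic markers 9 of 10 below 0 (median -0.59, 4 with an unadjusted p under 0.05), microglia 7 of 7 below 0 (-0.32, 3) and choroid plexus 8 of 8 above 0 (0.53, 3). In forebrain 0 genes of the following lists passed either. Excitatory markers were 8 of 10 below 0 (median -0.28, 2 with an unadjusted p under 0.05). Septum, preoptic area and hypothalamus markers were 8 of 9 above 0 (0.32, 2). Cholinergic markers were 9 of 10 above 0 (0.11, 1). The part of these lists in the cortical and forebrain values was not tested.

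Between regions, all 8 genes differed in Con and 5 of 8 in DKO, by limma at an adjusted p under 0.05. The background was wide: 48.4% of 26959 genes passed in Con (18.4% higher in forebrain, 30.0% lower) and 38.3% in DKO (18.5% higher, 19.8% lower). Of the 8 genes, 3 were higher and 5 lower in Con, and 1 was higher and 4 lower in DKO. Inhba is among the 3, and the choice of genes rested on its forebrain values. In Con, region and slide coincide, so the Con differences are also differences between slides. In DKO, 2 of 3 mice had both arrays on slide 1. Groups did not overlap for 8 of 8 genes in Con (61.2% of all genes) and for 5 of 8 in DKO (48.6%). The type II receptor Acvr2b was higher in basal forebrain, and Inhbb, Fst, Acvr1 and Acvr1b were lower, in both genotypes. Cell type markers also differed by region. Striatal medium spiny neuron markers were higher in forebrain for 9 of 9 genes in each genotype (medians 1.80 in Con and 1.81 in DKO), and meningeal fibroblast markers for 8 of 9 and 7 of 9 (0.91 and 0.99). Choroid plexus markers were lower for 5 of 8 and 7 of 8 (-3.59 and -4.83), with 1 higher in each. Their part in the regional differences of the 8 genes was not tested.

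Among ligands, Inhbb was lower in forebrain by -1.10 (SE 0.16, limma adjusted p = 0.000212) in Con and by -0.91 (SE 0.16, 0.00094) in DKO, which is 2.15-fold and 1.87-fold. All 6 mice had the same direction, from -0.60 to -1.21. Inhba was higher in Con forebrain by 0.32 (SE 0.10, limma adjusted p = 0.0157), but the call was lost without Con mouse 1 (0.38, 0.0546) or Con mouse 3 (0.22, 0.137) and under array-median scaling (0.21, 0.294). In DKO the Inhba difference was -0.16 (SE 0.10, 0.196). Array-median scaling gave -0.45 (0.0281) there. Both Inhba differences use the forebrain arrays on which Inhba was noticed, so their p-values are descriptions and not independent tests.

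Among antagonists, Fst was lower in forebrain by -0.66 (SE 0.14, limma adjusted p = 0.00324) in Con and by -0.74 (SE 0.14, 0.00189) in DKO, in 6 of 6 mice. Fstl3 was higher by 0.45 (SE 0.16, limma adjusted p = 0.0381) in Con and by 0.12 (SE 0.16, 0.585) in DKO. The Con call for Fstl3 was lost without Con mouse 1 (0.42, 0.157), without Con mouse 2 (0.42, 0.155), and with DKO mouse 2 out of the shared fit (0.45, 0.0557). It was also lost with quantile normalization (0.37, 0.0732) and array-median scaling (0.34, 0.119).

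Among receptors, Acvr1b was lower in forebrain by -0.61 (SE 0.06, limma adjusted p = 1.81e-05) in Con and by -0.59 (SE 0.06, 2.34e-05) in DKO. Acvr2b was higher by 0.77 (SE 0.07, limma adjusted p = 9.15e-06) in Con and by 0.60 (SE 0.07, 5.63e-05) in DKO. Acvr1 was lower by -0.37 (SE 0.07, 0.00186) in Con and by -0.56 (SE 0.07, 0.000114) in DKO. Acvr2a was lower in Con by -0.45 (SE 0.11, 0.00566) and stood at -0.05 (SE 0.11, 0.733) in DKO. Acvr1b and Acvr2b also varied little within groups, with pooled SDs of 0.06 and 0.07 beside a median of 0.16 over 23788 genes.

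**Figure D3:**
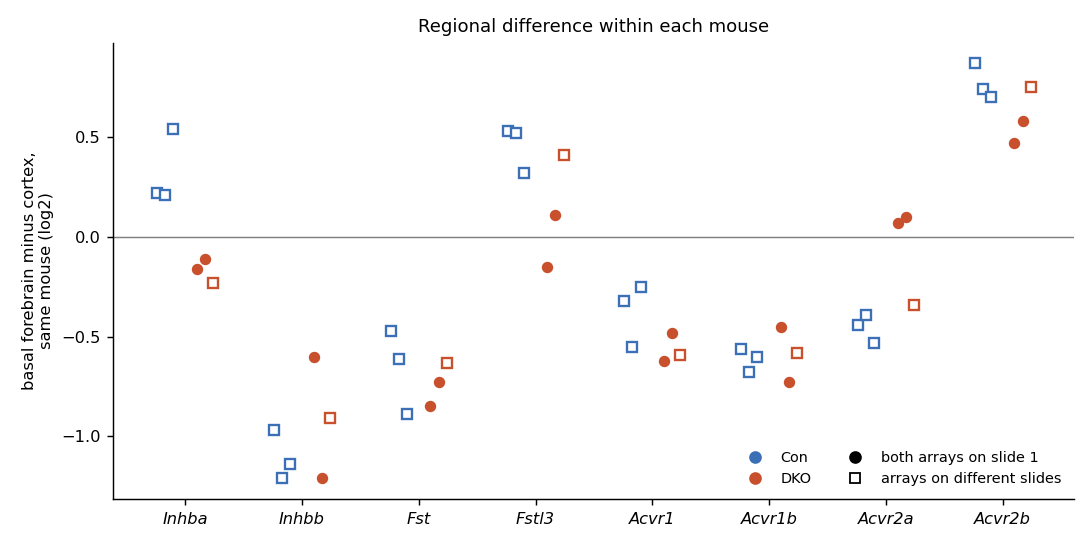
Basal forebrain minus cortex within each of the 6 mice (log2) for the 8 genes, by genotype; filled circles are mice with both arrays on slide 1 and open squares mice whose arrays lay on different slides. Inhbb, Fst, Acvr1 and Acvr1b lie below 0 and Acvr2b above 0 in all 6 mice, and Inhba lies above 0 in the Con mice and below 0 in the DKO mice.

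On slide 1 alone, the 3 DKO forebrain arrays against 2 DKO cortex arrays still passed for 5 genes, with 29.9% of all genes passing. They were Inhbb (-0.85, limma adjusted p = 0.014), Fst (-0.78, 0.00743), Acvr1 (-0.56, 0.00336), Acvr1b (-0.60, 0.00101) and Acvr2b (0.54, 0.000668). With slide as a block over all 12 arrays, the Con difference was estimated through the slide difference of DKO cortex, and 10.6% of genes passed. Acvr1b (-0.64, limma adjusted p = 0.0044) and Acvr2b (0.58, 0.00637) passed there in Con. Inhbb (-0.94, 0.0665), Fst (-0.78, 0.0679), Acvr1 (-0.36, 0.117), Inhba (0.25, 0.429) and Acvr2a (-0.14, 0.668) did not, and Fstl3 was at -0.02 (0.979). With DKO mouse 2 as the only mutant, Fst (-0.73, 0.0903) and Acvr1 (-0.48, 0.0618) missed the threshold in DKO.

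Array-median scaling moved the median regional difference of all genes from -0.09 to -0.21 in Con and from -0.04 to -0.33 in DKO. The share of passing genes that were higher in forebrain went from 38% to 27.6% in Con and from 48.3% to 22.6% in DKO. The directions of Inhbb, Fst, Acvr1, Acvr1b and Acvr2b were the same under that scaling. Fstl3 in DKO became -0.16 (limma adjusted p = 0.438).

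The receptors' further probes were compared with the brightest. Second probes of Acvr1 and Acvr2a had the same sign in both regional comparisons (-0.57 and -0.58 for Acvr1, -0.36 and -0.06 for Acvr2a, Con first), and that of Acvr2a followed its first with r = 0.87. The second Acvr1b probe gave -0.11 and -0.50, and the second Acvr2b probe gave 0.16 and 0.52. These had the sign of the brightest probes but smaller Con differences. Both pairs correlated less over the 12 arrays, at r = 0.55 and 0.56. In cortex they disagreed by genotype: the second Acvr1b probe gave 0.36 and the second Acvr2b probe -0.22. For both, the 2 DKO arrays of slide 1 stood apart, at a mean of -0.55 against -1.34 on slide 2 for Acvr1b and -1.83 against -1.30 for Acvr2b.

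The third probes of Acvr1 and Acvr2a were dim. The one for Acvr1 was well above background on 2 DKO and 1 Con forebrain arrays and on 0 cortex arrays. Its DKO forebrain mean was 1.07-fold above the detection limit of DKO cortex. The one for Acvr2a was well above background on 3 DKO and 2 Con forebrain arrays, 1 DKO cortex array and 0 Con cortex arrays. Its Con forebrain mean was 1.34-fold above the detection limit of Con cortex. These limits rest on the dimmest signal called well above background on each array of the dimmer group. Each forebrain mean includes an array at background, so the folds are not strict lower bounds. Since the probes were at background on the other arrays, no correlation with the brighter probes is drawn from them. The files assign them to other transcript records than the brightest probes.

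**Figure D4:**
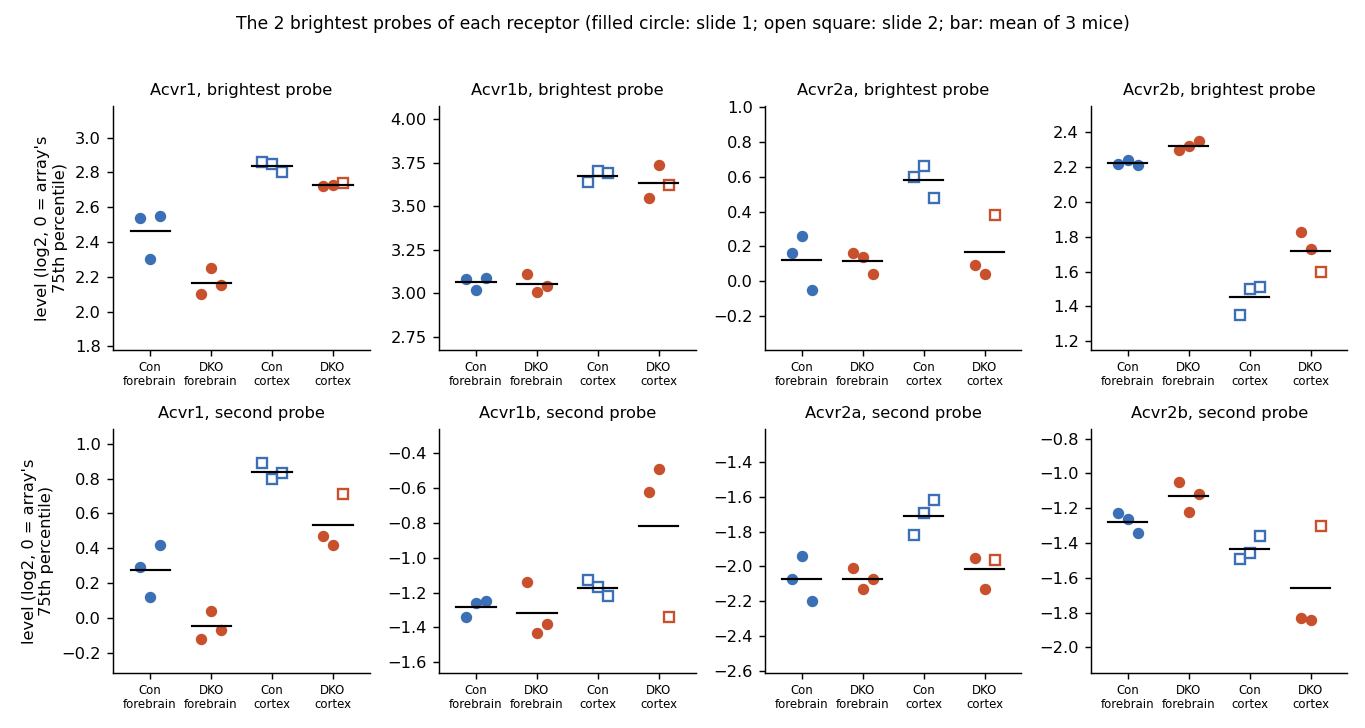
Levels of the brightest (top) and second (bottom) probe of each receptor (log2, 0 at the array's 75th percentile) on 12 arrays, with the mean of 3 mice as a bar; filled circles are slide 1 and open squares slide 2. The Acvr1 probes agree closely (r = 0.96), while the second Acvr1b and Acvr2b probes read apart on the 2 DKO cortex arrays of slide 1.

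The rest of the pathway was read through 5 lists. By genotype, 0 genes passed in any of them in cortex or in basal forebrain: 11 further ligands, 11 further receptors and co-receptors, 8 further follistatin-like and binding proteins, 13 SMAD transducers and regulators, and 11 activin and TGF-beta response genes. Of the 54 entries in these lists, some shared between lists, 15 had an unadjusted limma p under 0.05 in cortex, beside 18.9% of all genes, and 5 in forebrain, beside 4.39% of all genes. Their median differences ran from -0.15 to 0.12 in cortex and from -0.10 to 0.05 in forebrain. Single genes ran from -0.76 to 0.60 in cortex and from -0.71 to 1.53 in forebrain, the highest among the further receptors and co-receptors. In cortex Klf10, an early response gene of TGF-beta signalling, stood at -0.71 (SE 0.26, limma adjusted p = 0.261). Skil, a SMAD corepressor induced by the pathway, stood at -0.22 (SE 0.07, 0.261). Smurf2, a ubiquitin ligase that acts on the pathway, stood at 0.60 (SE 0.17, 0.261). Spock1 was at 0.43 (SE 0.11, 0.261) and Tgfb2 at 0.25 (SE 0.09, 0.261).

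Between regions, 5 of 11 further ligands passed in Con, 3 higher in forebrain and 2 lower, and 3 in DKO. Over all genes 48.4% passed in Con and 38.3% in DKO. Inha, the alpha subunit that turns an activin dimer into an inhibin, was higher in Con forebrain by 0.75 (limma adjusted p = 0.00624). Tgfb2 was higher by 0.47 (limma adjusted p = 0.000952) in Con and 0.29 (0.0153) in DKO. Inhbe was lower by -1.56 (0.00151) and -1.17 (0.00889). Of 11 further receptors and co-receptors, 3 passed in each genotype. Tgfbr3, or betaglycan, an inhibin co-receptor, was higher by 0.49 (limma adjusted p = 0.00689) and 0.39 (0.0259). Acvr1c, the type I receptor ALK7, was lower in forebrain than in cortex of DKO mice by -0.60 (0.000438), and the nodal co-receptor gene Tdgf1 was higher there by 2.42 (0.000882).

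Of the 8 follistatin-like and binding proteins, 4 were higher in forebrain in each genotype, beside 18.4% of all genes in Con and 18.5% in DKO. Spock1 was lower in forebrain of DKO mice (-0.87, limma adjusted p = 0.00152), beside 19.8% of all genes. Igsf1, an immunoglobulin superfamily protein once proposed to bind inhibin, was higher by 3.40 (limma adjusted p = 6.31e-08) in Con and 3.72 (2.5e-08) in DKO. Fstl5 was higher by 0.85 (0.000102) and 0.96 (4.26e-05), and Fstl1 by 0.45 (0.000419) and 0.44 (0.000479). The medians of this list, 0.50 and 0.52, stand beside -0.09 and -0.04 over all genes. Follistatin itself had the opposite sign, at -0.66 and -0.74.

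Of 13 SMAD transducers and regulators, 1 was higher and 5 lower in forebrain in each genotype. Over all genes 18.4% were higher and 30.0% lower in Con, and 18.5% and 19.8% in DKO. Smad2 and Smad3, which carry the activin signal, were lower by -0.37 and -0.26 in Con (limma adjusted p = 0.00347 and 0.0348) and by -0.34 and -0.39 in DKO (0.00705 and 0.00538). Zfyve9, or SARA, which presents them to the receptor, was lower by -0.92 (1.59e-05) and -0.74 (7.63e-05). Smurf2 was higher by 1.44 (1.55e-05) and 0.86 (0.000714). Among 11 response genes, 2 were higher and 3 lower in Con, and 1 higher and 3 lower in DKO. Id3 was higher in Con by 0.40 (limma adjusted p = 0.0114), whereas Id2 was lower by -1.24 and -1.05 and Klf10 by -1.57 in both.

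Since Inhba is activity-regulated, 18 immediate early genes were read beside it. By genotype 0 of 18 passed limma in either region (3 in cortex and 1 in forebrain had an unadjusted p under 0.05, beside 18.9% and 4.39% of all genes). In forebrain 14 of 18 were below 0 in DKO relative to Con (median -0.12), beside 48.9% of all genes. In cortex 9 of 18 were (median 0.01), beside 58.5%. The mean level of the list overlapped between genotypes in both regions. Its part in the Inhba difference was not tested. All 18 were below 0 in forebrain relative to cortex, beside 56.8% of all genes in Con and 54.5% in DKO. Of the 18, 11 passed in Con and 10 in DKO, beside 30.0% and 19.8% of all genes passing as lower. Their medians were -0.96 and -1.01. Inhba did not share that direction in Con, where it was at 0.32. In cortex the neuronal pentraxin gene Nptx2 stood at -0.52 (SE 0.09, limma adjusted p = 0.232) and Bdnf at -0.48 (SE 0.14, 0.261) by genotype.

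The genes whose levels were most like Inhba over the 12 arrays, among 15401 genes, were Tada1 (r = 0.90), Lxn (0.87), Etfdh (0.85), Synpr (0.84) and Bnip1 (0.84). Among the lowest r were those of the B cell gene Pou2af1 (-0.92) and the red cell gene Slc4a1 (-0.90). With the mean of each region taken off, Kctd12 (0.93), Mapkapk3, Med10, Tmem198b and Mas1 (each 0.92) were highest. Of the other 7 genes of the set, Acvr1 was then most like Inhba (0.87) and Acvr2b least (-0.56). These are descriptions over arrays that share mice, slides and genotype.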

How the data were processed

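RNA of 12 tissue samples, 3 mice per genotype and region, was hybridised in 1 colour. Per the file headers, the deposited intensity values came from Agilent Feature Extraction 10.7.1.1 (protocol GE1_107_Sep09), background-subtracted and not scaled between arrays. The authors' normalized log2 values were an alternative, and their normalization is not stated by label or header. Raw values in the deposited table equalled the scanner's within 0.01 log2 for 99.998%. Control and flagged spots were left out, and spots of a probe averaged. A RefSeq table (GRCm38.p6) named 32972 probes, and 23596 kept the files' name. No genome sequence was used here, so exon or UTR positions of probes are not given.

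Log2 intensity minus the array's 75th percentile was tested with limma 3.58.1 in R 4.3.3 (lmFit, eBayes with trend, Benjamini-Hochberg over all genes, threshold 0.05). A gene is its brightest probe, and entered a fit when, in 1 group or more, each of the 3 arrays had that probe well above background. The alternative called the mean of all probes took only the probes that met this rule in the fit. Each genotype comparison used its region's 6 arrays. Regional comparisons and the interaction used all 12 in 4 groups. The code was tested on simulated data. Depth does not apply to arrays, whose number limits the precision. The mice are separate animals, and both regions of a mouse share its number in the labels. Deviations of those 2 arrays correlated at 0.20 to 0.41 in Con and at -0.13 to 0.19 in DKO. Saturated spots numbered 0. Alternatives were background correction, scaling, filter, probe choice, variance model, each mouse left out, blocks and slides.

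The 8 genes, the lists and the rules were chosen with earlier results of these data known. All 8 genes and their probes are named, as is Psen2. Results for some further genes picked by these rules are left out. A list gene is named if it passed in a tested comparison or had 1 of the 3 smallest p of its list. The genes most like Inhba are the 5 highest and 3 lowest r over the arrays, and the 5 highest with region means taken off.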

Additional observations from a re-analysis of the deposited data

Results flagged for a closer look

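The regional difference of Inhba had opposite directions in the genotypes: basal forebrain minus cortex was above 0 in all 3 Con mice (0.22, 0.21 and 0.54) and below 0 in all 3 DKO mice (-0.16, -0.11 and -0.23). The difference between the genotypes was -0.49 (SE 0.14). It was not tested, because it contains the contrast in which Inhba was noticed, and 0 of 26959 genes passed limma for that interaction (2254, or 8.36%, had an unadjusted p under 0.05). The value ranged from -0.66 to -0.38 over 17 alternatives. All 3 Con mice and DKO mouse 3 had their arrays on different slides, and that DKO mouse was at -0.23. The DKO mice with both arrays on slide 1 were at -0.16 and -0.11. In Con, region and slide coincide and cannot be told apart. With slide as a block over all 12 arrays the Con difference was 0.25 (limma adjusted p = 0.429). The part of slide in the opposite directions was not tested.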

How the results depend on the processing

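The precision is that of 3 mice per group on 2 slides. Acvr1b and Acvr2b kept their direction and stayed past the threshold in every alternative run for both regional comparisons, and Inhbb did so in DKO. Inhba in cortex lay between -0.38 and -0.24 over 19 alternatives. In basal forebrain, where it is a description, it lay between -0.89 and -0.73 over 17.

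Counts of passing genes moved as follows. In cortex (3) they were 5 with array-median scaling, 1 with no filter, 0 with the mean of all probes, 1 with no trend, 27 with all 12 arrays, 27 on slide 2, 7742 without DKO mice 1 and 3, and 1 to 9759 leaving out 1 mouse (9759 without DKO replicate 3, 8 without DKO replicate 2, 1 without Con replicate 2 or 3). In basal forebrain (8) they were 5 with normexp, 18 with array-median scaling, 3 with no filter, 2 with every array above background, 26 with all 12 arrays, 0 without DKO mice 1 and 3, and 0 to 24 leaving out 1 mouse (0 without DKO replicate 3 or Con replicate 3, 1 without Con replicate 1, 13 without DKO replicate 2, 24 without Con replicate 2). Between regions they were 2857 with the slide block and 6833 to 13943 leaving out 1 mouse (lowest without Con replicate 1, and 8262 without Con replicate 2) in Con (13037), and 3528 without DKO mice 1 and 3 and 6358 to 10722 leaving out 1 mouse (lowest without DKO replicate 2) in DKO (10314). For the interaction (0) they were 15 without DKO mice 1 and 3 and 0 to 1559 leaving out 1 mouse (1559 without DKO replicate 3, 7 without Con replicate 2). The 2 large cortical counts come from fits in which every DKO array is on slide 1 and every Con array on slide 2. The cause of the other moves was not tested.

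Same label numbers did not pair mice across genotypes: their deviations correlated at -0.54 to 0.50. With the labels' number as a replicate block, 2 genes passed in cortex and 0 in basal forebrain, and Inhba in cortex was at -0.31 (limma adjusted p = 0.204). With the mouse as a replicate block, 13170 and 10402 genes passed between regions in Con and DKO, 0 passed for the interaction, and no call among the 8 genes changed.

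Values that turned sign were all short of the threshold in the alternative. In cortex, Inhbb was 0.01 with normexp and without DKO replicate 1 or 2, 0.06 with array-median scaling and without Con replicate 3, and 0.09 with the slide block and on slide 2. Fst was 0.03 with array-median scaling, 0.00 with the authors' values, 0.07 without Con replicate 3 and 0.08 without DKO mice 1 and 3. Fstl3 was -0.15 with the slide block and on slide 2. Acvr1b was 0.04 with array-median scaling, 0.16 with the mean of all probes, 0.01 without DKO replicate 1 and 0.07 without DKO mice 1 and 3. Leaving out 1 mouse at a time gave -0.09 to 0.06 for Inhbb, -0.10 to 0.07 for Fst and -0.09 to 0.01 for Acvr1b in cortex. Between regions with the mean of all probes, which takes in the dim probe, Acvr2a was 0.52 in Con and 0.66 in DKO. Fstl3 was -0.02 in Con with the slide block. In DKO Fstl3 was -0.04 with quantile normalization and with the authors' values, -0.16 with array-median scaling, -0.02 to 0.26 leaving out 1 mouse, and -0.03 with the slide block and on slide 1. Acvr2a in DKO was -0.13 to 0.09 leaving out 1 mouse, 0.10 without DKO mice 1 and 3, and 0.05 with the slide block and on slide 1. Array-median scaling brought Acvr2a in DKO past the threshold (-0.34, limma adjusted p = 0.0366).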
